A study of Mus musculus with 22 samples.

Results

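The enzymes that write and erase methyl groups on DNA and histones, with a protein family that includes readers of methylated DNA, were followed as a set of 43 genes. The set holds 3 TET dioxygenases, 2 DNA methyltransferases, 6 genes of the methyl-CpG-binding-domain (MBD) family, 2 amine oxidase demethylases and 10 Jumonji (JmjC) demethylases. It also holds 4 core genes of Polycomb repressive complex 2 (PRC2), 13 other SET-domain or lysine methyltransferase genes and 3 arginine methyltransferases. The genes were taken by name from the count table if they were expressed. All 43 listed genes were among the 24061 genes of the table, and all 43 were among the 14564 genes that passed the filter on low counts. Setd8 is the older symbol of Kmt5a.

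Each of the 22 libraries held bulk RNA of the nucleus accumbens, a ventral striatal region of the reward circuit, from male C57BL/6J mice aged 7 to 9 weeks. Antibiotic-morphine mice (5 libraries, numbered 1 to 5) had a gut microbiome depleted with nonabsorbable antibiotics and received morphine at 20 mg per kg per day for 7 days. Water-morphine mice (5 libraries, 2 to 6) kept a normal microbiome and received the same morphine. Antibiotic-saline mice (6 libraries, 1 to 6) had the depleted microbiome and received saline, and water-saline mice (6 libraries, 3, 4, 5, 6, 8 and 9) had a normal microbiome and saline. The antibiotic agents are not named in the labels, nor is it stated whether a library is 1 animal or a pool, so p-values measure the spread between these libraries. The design sets morphine against saline at each microbiome status, antibiotics against water under each drug, and both morphine changes against each other.

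DNA methyltransferases add a methyl group to cytosine, mostly where it precedes guanine (CpG), and TET enzymes oxidise it, which starts its removal. Some MBD proteins bind methylated CpG, and others of the family do not. Histone methyltransferases mark lysine and arginine residues, some marks accompany transcription and others repression, and demethylases of the amine oxidase and JmjC families remove them. In the nucleus accumbens, several of these enzymes (Dnmt3a, Tet1 and Ehmt2 among them) are known from rodent work on drug and stress responses.

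Total counts ranged from 11789713 to 19755139 per library, and counts assigned to genes from 9357299 to 15330947. Drd1a, the D1 dopamine receptor gene, had group means of 238 to 263 CPM, the gene's count scaled to the library's normalised total of gene counts. The 15 markers of striatal neurons, Drd1a among them, summed to 6079 to 7851 CPM in antibiotic-morphine and 5347 to 8835 CPM in water-morphine libraries. They summed to 4231 to 9040 CPM in antibiotic-saline and 6977 to 9981 CPM in water-saline libraries. Slc17a7, a glutamate transporter gene of cortical neurons, ran from 3.48 to 1238 CPM over the libraries. The 12 microglial markers summed to 443 to 523 CPM in antibiotic-morphine, 596 to 670.3 CPM in water-morphine, 536 to 662 CPM in antibiotic-saline and 695 to 746 CPM in water-saline libraries, none of them at 0 in any group. The 12 markers of mature oligodendrocytes summed to 5349 to 6082, 5444 to 6381, 5384 to 6295 and 6398 to 7406 CPM in the same order, and the 8 markers of oligodendrocyte precursors to 394 to 449, 477 to 539.9, 449 to 519 and 526.03 to 592 CPM, again with none at 0. Of 15 markers of striatal neurons, 0 passed in edgeR in any of the 4 comparisons, with 0 or 1 per comparison at an unadjusted p under 0.05. Even so, all 15 had a log2 change below 0 for morphine in water mice (median -0.17) and for antibiotics under saline (median -0.25), while 6 of 15 were above 0 for morphine in antibiotic mice and 4 of 15 for antibiotics under morphine. The 11 markers of cortical and septal neurons summed to 266 to 1109 CPM in antibiotic-morphine, 95.7 to 1333 CPM in water-morphine, 200.4 to 1654 CPM in antibiotic-saline and 81.2 to 804 CPM in water-saline libraries. A list's score in a library is the mean log2 CPM of its markers, each centred on its mean over the libraries. Antibiotic-saline library 5 had the lowest striatal score (-0.80) and the highest cortical and septal score (1.94). Water-morphine library 4 came next in both (-0.43 and 1.70). In bulk tissue, fewer cells of a type and less RNA per cell cannot be told apart.

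Libraries also differed in how counts ran with transcript length. The length slope, meaning the change in a library's centred log2 CPM per doubling of a gene's longest annotated transcript, was 0.0255 to 0.0550 in antibiotic-morphine, 0.0280 to 0.0468 in water-morphine, -0.0532 to 0.0479 in antibiotic-saline and -0.0780 to -0.0111 in water-saline libraries. All 5 water-morphine libraries stood above all 6 water-saline libraries, so the slope and morphine cannot be told apart there. Among antibiotic-saline libraries, library 6 alone had a slope within the morphine range, and it held 2463 CPM of the nuclear RNA Malat1 and 15.4% of its counts outside genes. Antibiotic-morphine library 4 had the next highest Malat1 (1007 CPM). Among the methylation genes the median longest transcript was 4987 nt over the 43 genes and 3259 nt over all genes with a length, and 23 of the 43 were long genes, here those of 4791 nt or more, the upper quartile of all genes. Changes were also computed with the length slope as a covariate in the model. The slope is computed from the same counts as the changes, so it is not an independent measure of the libraries.

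The 43 genes were taken as expressed, so a measurable level of each was set by the choice. Over all libraries, a gene's count ran from 48 to 3890. Ehmt2, which encodes the H3K9 methyltransferase G9a, had the highest mean at 284 CPM, with 258, 298, 272, 301 and 281 CPM in antibiotic-morphine, 290.1, 282, 251, 282 and 264 CPM in water-morphine, between 278 and 328 CPM with a median of 296 in antibiotic-saline, and between 268 and 289 CPM with a median of 281 in water-saline libraries. Ezh2, the PRC2 methyltransferase of dividing cells, had the lowest at 7.16 CPM. Levels can be compared between genes only per length, and on that scale Mbd3 (76.8 CPM per kb), Ehmt2 (70.6), Setd3 (70.3) and Prmt1 (48.4) were highest. Tet1 (1.06 CPM per kb), Kdm1b (2.23), Mbd4 (2.42) and Ezh2 (2.57) were lowest. Among TET genes the order per kb was Tet3 (6.89), Tet2 (5.26) and Tet1, while Dnmt1 (14.0) and Dnmt3a (13.8) were near the set's median of 13.7. Within a group, the coefficient of variation of CPM ran from 3.07% for Ezh1 to 16.3% for Ezh2, with a median of 7.52%. The sum over the 43 genes was 3784 to 4022 CPM in antibiotic-morphine, 3561 to 3846 CPM in water-morphine, 3521 to 3944 CPM in antibiotic-saline and 3413 to 3656 CPM in water-saline libraries.

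**Figure D1:**
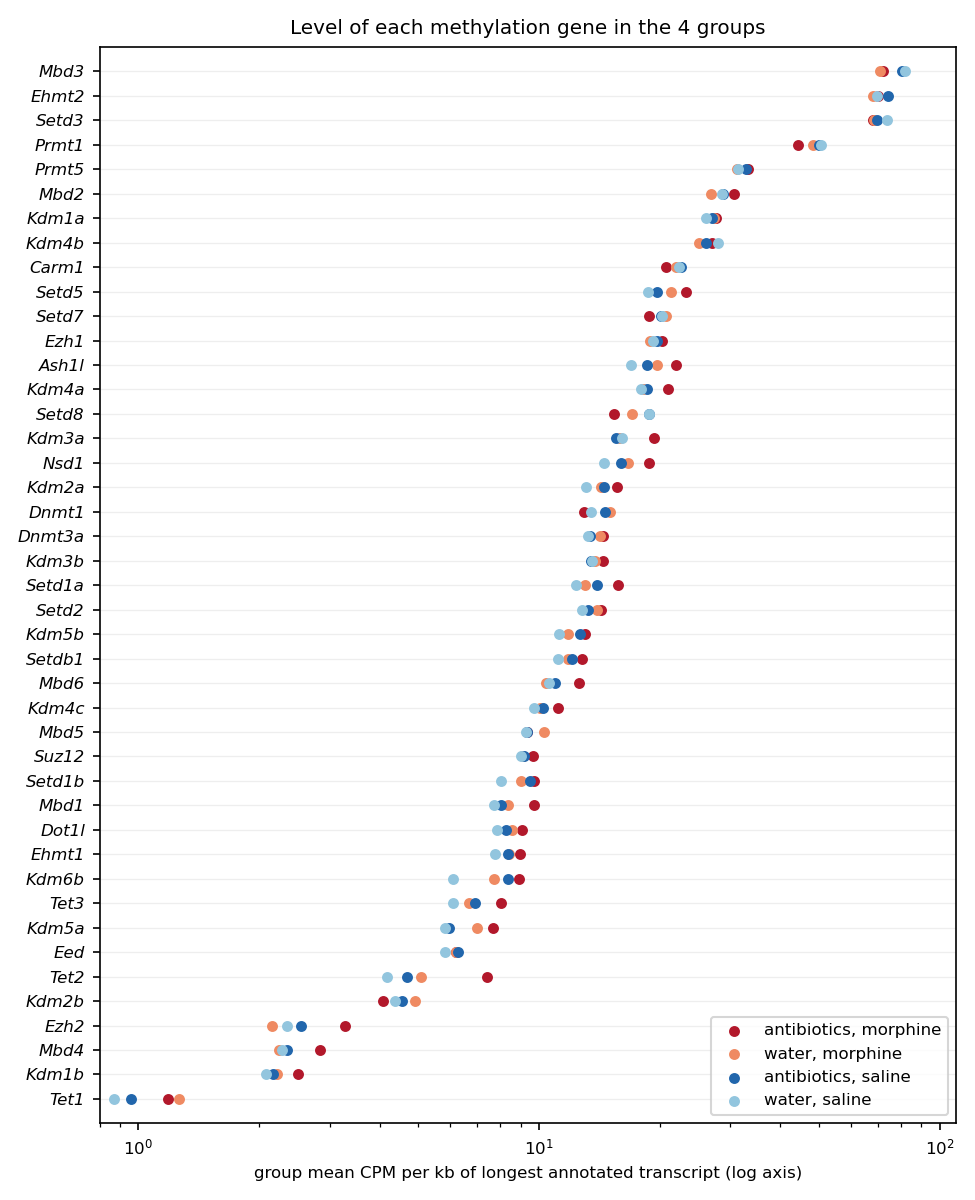
Group mean level of each of the 43 genes in CPM per kb of longest annotated transcript (log axis), 1 point per group, genes ordered by their mean over the libraries. Levels span 1.06 for Tet1 to 76.8 for Mbd3, and the 4 groups of a gene lie close together beside the spread between genes.

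Morphine against saline in mice on water changed 7 of the 43 genes, 6 higher and 1 lower (edgeR quasi-likelihood F-test, Benjamini-Hochberg adjusted p under 0.05 over all genes tested). The higher genes were Tet1, Dnmt1, Kdm5a, Kdm6b, Nsd1 and Ash1l, and the lower gene was Mbd3. Of all genes tested, 6.58% passed, 3.91% higher and 2.67% lower. The median log2 change was 0.08 over the 43 genes and -0.00017 over all genes. The groups did not overlap for 8 genes above and 1 below, beside 3.1% and 2.73% of all genes tested. Kdm5a was no longer past the threshold without water-morphine library 5 (adjusted p = 0.0532). Nsd1 was lost in 5 of the 22 fits that left out 1 library (without water-morphine 3 or 5, or water-saline 3, 4 or 8; adjusted p 0.0518 to 0.0714), Ash1l in 10 (without antibiotic-morphine 1, any water-morphine library, or water-saline 3, 4, 8 or 9; 0.0506 to 0.105) and Dnmt1 in 13 (without any water-morphine library, antibiotic-saline 1, 3 or 4, or any water-saline library but 5; 0.0511 to 0.111). The count itself was 4 without water-saline library 3 or 8 or water-morphine library 3, 3 without water-morphine library 5, and 0 with the length slope as covariate, a setting in which edgeR called 0 of all genes, with an unadjusted p under 0.05 for 3 of the 43 and for 1032 of all genes (7.09%). With morphine in water mice, 4 of 12 microglial, 3 of 12 mature oligodendrocyte, 1 of 8 precursor and 2 of 9 endothelial markers fell. All 12 microglial, all 12 mature oligodendrocyte and all 9 endothelial markers had a log2 change below 0. Of the precursor markers 5 of 8 had one above 0, as did 6 of 10 astrocyte markers. The part of these markers in the changes of the methylation genes was not tested.

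Morphine against saline in antibiotic mice changed 14 of the 43 genes, 10 higher and 4 lower. Tet1, Tet2, Mbd1, Mbd4, Kdm3a, Kdm4a, Kdm5a, Setd5, Nsd1 and Ash1l were higher, and Dnmt1, Mbd3, Setd8 and Prmt1 were lower. Of all genes tested, 13% passed, 6.43% higher and 6.62% lower, and the median log2 change was 0.10 over the set against -0.0024 over all genes. The groups did not overlap for 5 genes above and 2 below, beside 3.14% and 3.17% of all genes. The count was 9 without antibiotic-morphine library 1, 8 without antibiotic-morphine library 3 and 0 with the length slope as covariate in edgeR, where 141 of all genes passed and an unadjusted p under 0.05 was reached by 11 of the 43 and by 2000 of all genes (13.7%). In this comparison 10 of 12 microglial, 4 of 8 oligodendrocyte precursor and 2 of 9 endothelial markers and 1 of 10 astrocyte markers fell, 2 of 12 markers of mature oligodendrocytes rose and 2 fell, and their part was not tested.

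Antibiotics against water in saline mice changed 2 of the 43 genes, the JmjC demethylase genes Kdm6b and Kdm5b, both higher. Of all genes tested, 1.41% passed, 0.542% higher and 0.865% lower. An unadjusted p under 0.05 was reached by 10 of the 43 and by 2513 of all 14564 genes (17.3%). The log2 change was above 0 for 36 of the 43 and for 51.1% of all genes. Among long genes it was above 0 for 20 of 23 in the set and for 2251 of all 3473. With the length slope as covariate it was above 0 for 28 of the 43. In that fit 3 of the 43 and 1881 of all genes (12.9%) reached an unadjusted p under 0.05. Kdm6b alone of the set then passed, with 46 of all genes. The groups did not overlap for 2 genes above and 0 below, beside 0.632% and 1.01% of all genes. The median log2 change was 0.06 over the 43 genes and 0.0038 over all genes. Kdm5b was lost in 13 of the 22 fits that left out 1 library (without antibiotic-morphine 3, water-morphine 3 or 6, any antibiotic-saline library but 1, or any water-saline library but 4; adjusted p 0.0521 to 0.119), which left a count of 1, and without antibiotic-saline library 1 the count was 4. In the same comparison 10 of 12 markers of mature oligodendrocytes and 8 of 12 microglial markers were lower in antibiotic-saline mice, as were 2 of 8 precursor markers. All 11 markers of cortical and septal neurons had a log2 change above 0 (median 0.59) and all 15 of striatal neurons one below 0 (median -0.25), with 0 past the threshold in either list and 2 and 1 at an unadjusted p under 0.05. The part of these markers was not tested.

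Antibiotics against water in morphine mice changed 12 of the 43 genes, 10 higher and 2 lower. Tet2, Tet3, Mbd1, Mbd2, Mbd4, Kdm4a, Kdm6b, Ezh2, Setd1a and Nsd1 were higher in antibiotic-morphine mice, and Dnmt1 and Kdm2b were lower. Of all genes tested, 18% passed, 8.42% higher and 9.58% lower. The median log2 change was 0.10 over the set and 0.00084 over all genes. The groups did not overlap for 10 genes above and 2 below, beside 6.26% and 6.82% of all genes. These are in part other genes than the called ones: Kdm2b, Kdm4a, Kdm6b, Nsd1 and Setd1a passed with overlapping groups. Length slopes of both groups overlapped, and with the slope as covariate all 12 changes stayed past the threshold. The count was then 15, beside 2677 of all genes. In that edgeR fit an unadjusted p under 0.05 was reached by 21 of the 43 and by 4652 of all genes (31.9%). The count was 6 without antibiotic-morphine library 3 and 7 without antibiotic-morphine library 4 or water-morphine library 6. Markers of microglia (11 of 12), mature oligodendrocytes (6 of 12), oligodendrocyte precursors (5 of 8), astrocytes (3 of 10) and endothelial cells (3 of 9) fell in this comparison as well, and 1 astrocyte and 1 endothelial marker rose. Of 11 markers of cortical and septal neurons, 10 had a log2 change above 0 (median 0.41) and 0 passed or reached an unadjusted p under 0.05 in edgeR. Their part was not tested.

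These comparisons share groups and are not independent of each other. Over all 4, 21 of the 43 genes passed at least once, 10 of them in 1 comparison, 8 in 2 and 3 in 3 (Dnmt1, Kdm6b and Nsd1), beside 26.7% of all genes tested at least once, 15.7% in 1, 9.93% in 2 and 0.961% in 3. The log2 changes of the 22 that never passed lay between -0.16 and 0.28. The difference between both morphine changes passed for 1 of the 43 genes, Dnmt1, and for 0.467% of all genes tested. The lowest adjusted p of any other gene of the set was 0.218, so for those genes a call in one morphine comparison and not in the other does not show that the changes differ.

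**Figure D2:**
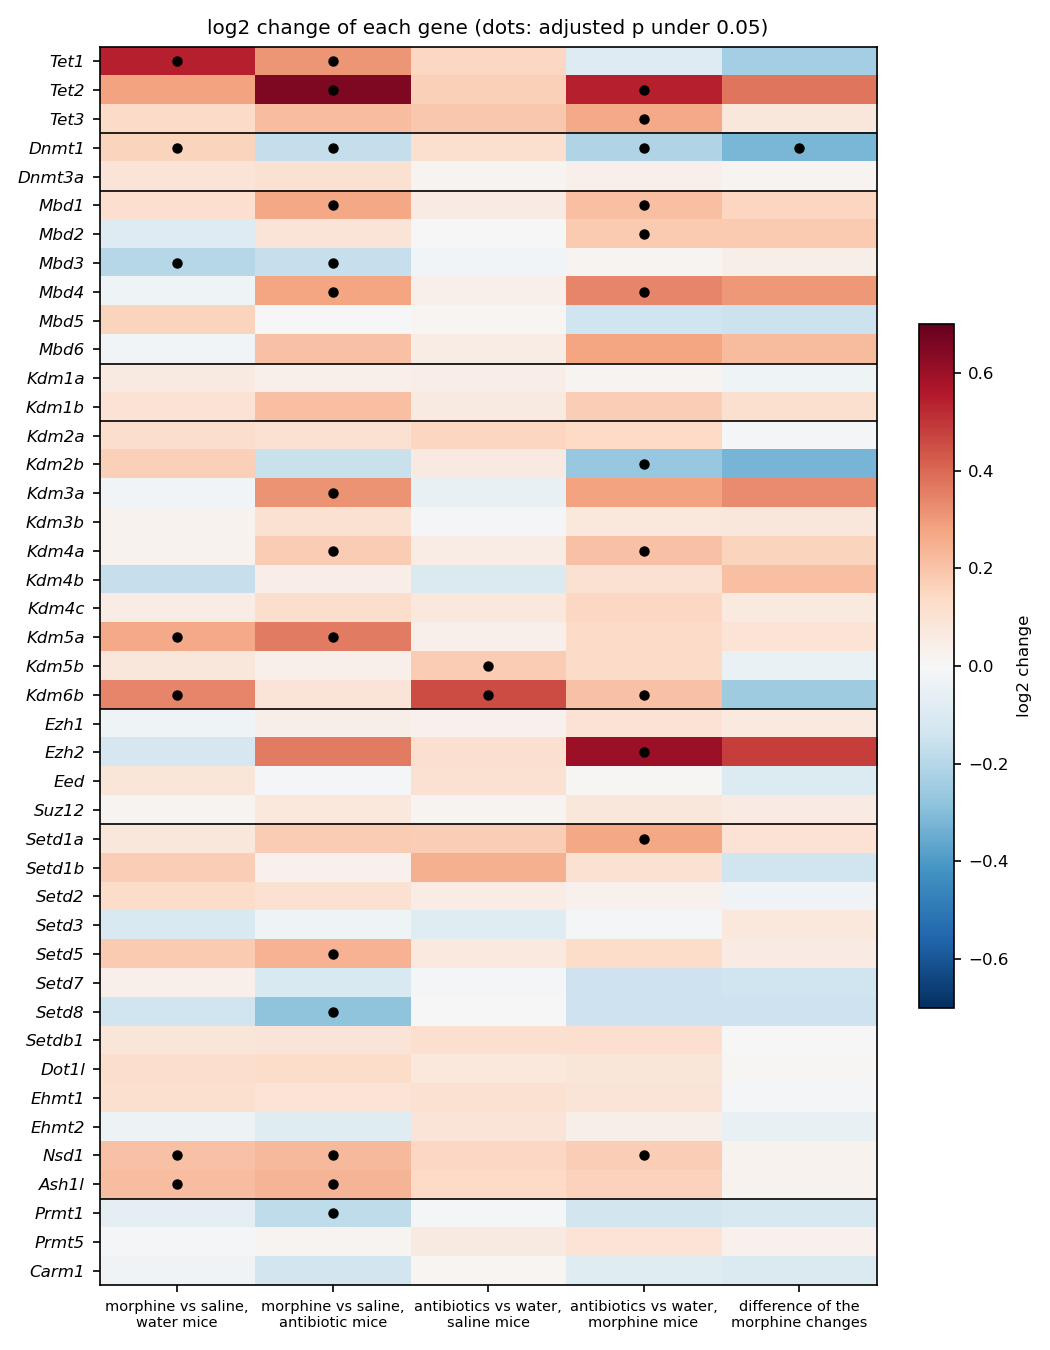
Heat map of the log2 change of each gene (rows, grouped by role with lines between the roles) in the 4 comparisons and in the difference of the morphine changes (columns), with a black dot where the adjusted p was under 0.05. Tet1, Kdm5a, Nsd1 and Ash1l are red and dotted in both morphine columns, Mbd3 is blue and dotted in both, and Dnmt1 is the only gene with dots on both red and blue cells.

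Promoter windows show what the genes with the largest changes hold upstream of their starts. RefSeq windows on GRCm38.p6 were matched for 32 of the 43 genes, in 48 windows of 250 bases upstream of an annotated start. A window held a median of 18.5 CpG (0 to 51), against 6 over all 32851 windows of the table, and had a median GC content of 65.6% against 52.4%. All windows cover 27025 genes, expressed here or not, while the 43 genes were taken as expressed. A background of expressed genes alone was not computed. The sequences below belong to the genes with the largest log2 change in a comparison among those matched (Tet1 in water mice and Tet2 in antibiotic mice with morphine, Ezh2 with antibiotics under morphine) and to Mbd3, lower with morphine at both microbiome statuses. They read 5′ to 3′ on the minus strand, on which all 4 genes lie, with each CpG in capitals.
Tet1, chr10:62887325-62887574, with 15 CpG: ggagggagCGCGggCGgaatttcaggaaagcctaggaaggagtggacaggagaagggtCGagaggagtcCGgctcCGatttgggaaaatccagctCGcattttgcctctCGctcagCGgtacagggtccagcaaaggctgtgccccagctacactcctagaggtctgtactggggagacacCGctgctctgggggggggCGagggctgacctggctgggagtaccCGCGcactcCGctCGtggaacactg
Tet2, chr3:133544391-133544640, with 51 CpG: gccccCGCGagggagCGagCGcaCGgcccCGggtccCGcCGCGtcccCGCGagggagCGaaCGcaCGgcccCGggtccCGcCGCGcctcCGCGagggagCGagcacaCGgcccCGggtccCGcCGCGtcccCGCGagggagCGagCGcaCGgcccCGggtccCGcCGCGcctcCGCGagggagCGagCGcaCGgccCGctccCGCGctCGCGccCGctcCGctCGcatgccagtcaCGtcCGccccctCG
Mbd3, chr10:80399532-80399781, with 14 CpG: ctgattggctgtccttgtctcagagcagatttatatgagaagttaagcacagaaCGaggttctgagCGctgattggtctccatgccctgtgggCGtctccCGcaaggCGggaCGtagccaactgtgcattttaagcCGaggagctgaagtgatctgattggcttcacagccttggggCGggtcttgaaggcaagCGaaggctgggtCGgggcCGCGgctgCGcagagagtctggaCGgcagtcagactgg
Ezh2, chr6:47595031-47595280, with 23 CpG: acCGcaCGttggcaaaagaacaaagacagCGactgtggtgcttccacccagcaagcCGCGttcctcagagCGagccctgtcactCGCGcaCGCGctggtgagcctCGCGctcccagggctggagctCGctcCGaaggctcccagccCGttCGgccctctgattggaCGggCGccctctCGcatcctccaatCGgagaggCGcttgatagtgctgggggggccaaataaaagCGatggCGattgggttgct
All 4 windows held more CpG than the median of all windows, and Tet2 had the most of any matched gene. The GC box (GGGCGG) was in the windows of Tet1, Tet2 and Mbd3, the CCAAT box (CCAAT) in those of Mbd3 and Ezh2, and the glucocorticoid receptor half-site (AGAACA) in that of Ezh2. Searched on both strands, the GC box was in 66.7% of the 48 windows and in 32.7% of all windows, and the CCAAT box in 43.8% and 33.8%. The E box (CACGTG) was in 12.5% and 6.02%, and the glucocorticoid receptor half-site in 12.5% and 16.1%. The cAMP response element (TGACGTCA), the ETS site (CCGGAAGT) and the NRF1 site were in none of the 48 windows and in 1.55%, 2.88% and 0.782% of all windows. The motifs named other than the CCAAT box and the glucocorticoid half-site each hold a CpG themselves. A match is a description of letters, not a site, and binding was not measured.

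Tet1, which encodes a TET dioxygenase that oxidises methylcytosine, rose with morphine at both microbiome statuses. It had 16.6, 16.8, 17.3, 16.01 and 18.6 CPM in antibiotic-morphine libraries, 17.2, 18.3, 17.5, 20.3 and 17.6 CPM in water-morphine, between 10.5 and 15.9 CPM with a median of 14.1 in antibiotic-saline, and between 10.6 and 15.1 CPM with a median of 12.1 in water-saline libraries. Every morphine library stood above every saline library of the same microbiome status. The log2 change was 0.54 ± 0.10, adjusted p = 0.00326, in water mice and 0.31 ± 0.10, adjusted p = 0.0439, in antibiotic mice. The first held in all 22 fits that left out 1 library, and the second was lost in 12 of them (without any antibiotic-morphine library, water-morphine 2, 3 or 6, or antibiotic-saline 1, 2, 3 or 5; adjusted p 0.0503 to 0.111) and with no filter on low counts, only the compared groups in the fit or the share of counts outside genes as covariate (adjusted p 0.0507 to 0.0666). Tet1 has the longest transcript of the set, 14369 nt, and with the length slope as covariate its changes were 0.30 ± 0.17, adjusted p = 0.732, in water mice and 0.14 ± 0.13, adjusted p = 0.7, in antibiotic mice.

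Tet2, the family member without a CXXC DNA-binding domain, was highest when antibiotics and morphine were combined. Its values were 70.5, 60.9, 75.5, 68.3 and 64.4 CPM in antibiotic-morphine and 43.9, 51.7, 40.3, 52.7 and 44.3 CPM in water-morphine libraries. In antibiotic-saline libraries it lay between 34.0 and 51.5 CPM with a median of 44.0, and in water-saline libraries between 35.0 and 40.9 CPM with a median of 38.8. All 5 antibiotic-morphine libraries stood above all libraries of the other groups. The log2 change was 0.54 ± 0.10, adjusted p = 0.00053, for antibiotics under morphine, 0.66 ± 0.09, adjusted p = 0.000269, for morphine in antibiotic mice, and 0.28 ± 0.10, adjusted p = 0.0823, for morphine in water mice. Both called changes held in each leave-one-out fit. With the length slope as covariate, the antibiotic change was 0.53 ± 0.09, adjusted p = 0.00035, and the morphine change in antibiotic mice was 0.47 ± 0.12, adjusted p = 0.0644. The difference of the morphine changes was 0.38 ± 0.14, adjusted p = 0.233.

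Tet3, the TET gene with the highest level, had 82.8, 90.0, 85.8, 95.3 and 84.7 CPM in antibiotic-morphine and 74.9, 76.8, 68.8, 81.2 and 62.7 CPM in water-morphine libraries, with no overlap between these groups. It was higher with antibiotics under morphine (0.27 ± 0.08, adjusted p = 0.0286), a call lost without antibiotic-morphine 2 or 4, or water-morphine 4 or 6 (adjusted p 0.0524 to 0.0889) or with the cortical and septal score as covariate or the share of counts outside genes as covariate (adjusted p 0.06 to 0.0686). Antibiotic-saline libraries ran from 68.0 to 94.5 CPM, the highest being library 6, and water-saline libraries from 60.0 to 76.7 CPM. Its morphine changes did not pass (0.14 ± 0.08 in water mice and 0.22 ± 0.08 in antibiotic mice).

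**Figure D3:**
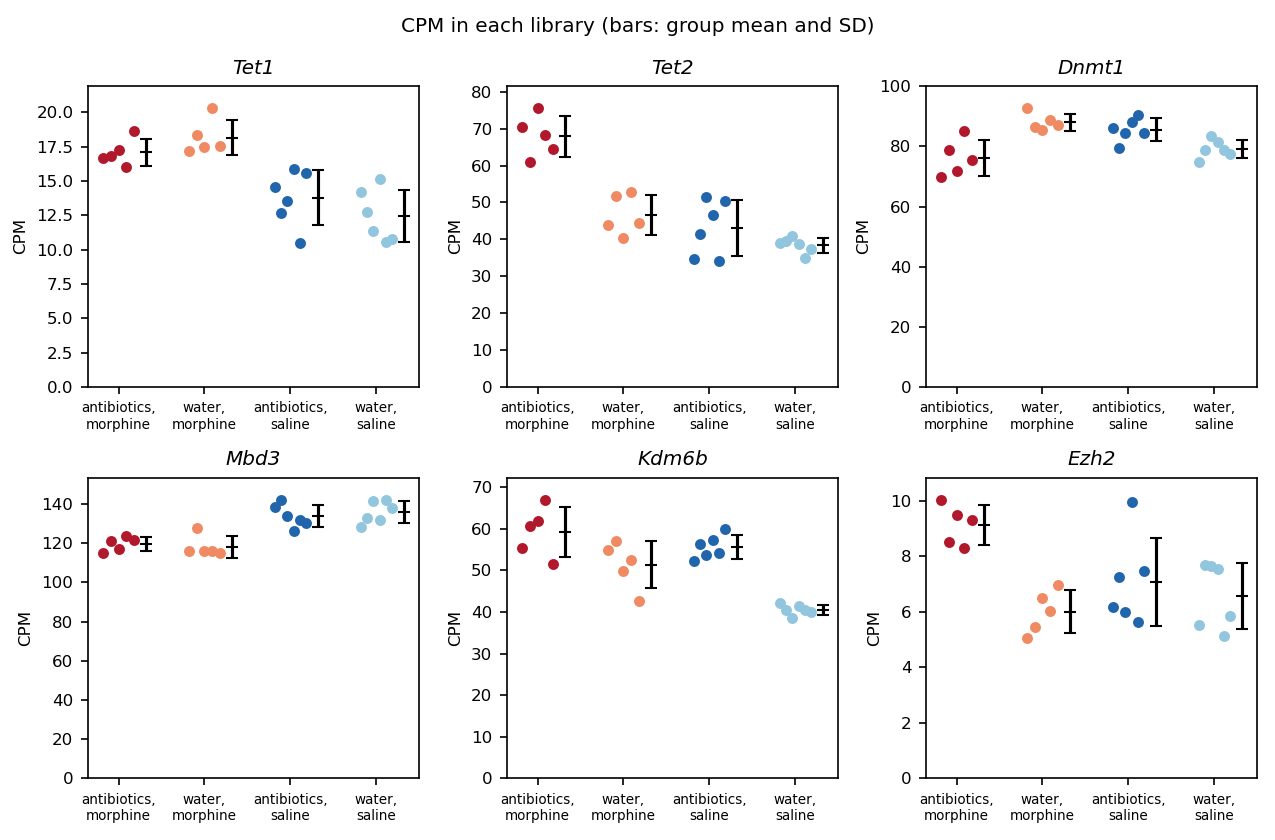
CPM of Tet1, Tet2, Dnmt1, Mbd3, Kdm6b and Ezh2 in each library (points), with the group mean and SD beside them, antibiotic-morphine, water-morphine, antibiotic-saline and water-saline from left to right. Tet1 separates morphine from saline, Tet2 is highest in antibiotic-morphine libraries (60.9 to 75.5 CPM), and Kdm6b is lowest in water-saline libraries (38.6 to 42.3 CPM). The group mean of Ezh2 is highest in antibiotic-morphine libraries (8.31 to 10.04 CPM), but antibiotic-saline libraries reach into that range.

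Dnmt1, the maintenance DNA methyltransferase, moved with morphine in opposite directions at the microbiome statuses. It had 69.8, 78.7, 71.8, 85.0 and 75.4 CPM in antibiotic-morphine libraries and 92.7, 86.6, 85.4, 88.7 and 87.3 CPM in water-morphine libraries. Antibiotic-saline libraries lay between 79.5 and 90.6 CPM with a median of 85.4, and water-saline libraries between 74.9 and 83.5 CPM with a median of 78.8. The morphine change was -0.17 ± 0.05, adjusted p = 0.0228, in antibiotic mice and 0.16 ± 0.05, adjusted p = 0.0482, in water mice, and the difference between them was -0.32 ± 0.07, adjusted p = 0.0276. Under morphine the antibiotic and water groups did not overlap (-0.21 ± 0.05, adjusted p = 0.00438), while under saline the change was 0.11 ± 0.05, adjusted p = 0.2. The antibiotic change under morphine stayed past the threshold in every alternative run. The difference lost its call without antibiotic-morphine 1 or 3, water-morphine 2, or water-saline 3 (adjusted p 0.0521 to 0.0693), and the morphine change in antibiotic mice without antibiotic-morphine 1 or 3 (adjusted p 0.0738 to 0.0786). The morphine change in water mice was lost in 13 of the 22 leave-one-out fits and with DESeq2's size factors, no filter on low counts or the share of counts outside genes as covariate (adjusted p 0.0509 to 0.0693). The one in antibiotic mice was also lost with only the compared groups in the fit (adjusted p = 0.0722). With the replicate number as a block, the difference (adjusted p = 0.105) and the change in water mice (adjusted p = 0.161) lost their calls. With the length slope as covariate both morphine changes lost their calls, at -0.19 ± 0.07, adjusted p = 0.157, in antibiotic mice and 0.12 ± 0.08, adjusted p = 0.81, in water mice, while the difference was -0.31 ± 0.07, adjusted p = 0.0418. Dnmt3a, the de novo methyltransferase, passed in none of the comparisons: it averaged 140.2, 137, 130.1 and 129 CPM in antibiotic-morphine, water-morphine, antibiotic-saline and water-saline libraries, with log2 changes between 0.02 and 0.11.

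Mbd3, a subunit of the NuRD complex that does not itself read methylated CpG in mammals, was lower with morphine at both statuses. Its values were 115, 121, 117, 124 and 122 CPM in antibiotic-morphine and 116, 128, 116, 116 and 115 CPM in water-morphine libraries, against between 126 and 142 CPM with a median of 133 in antibiotic-saline, and between 129 and 142 CPM with a median of 135 in water-saline libraries. No morphine library overlapped the saline libraries of its own microbiome status. The log2 change was -0.16 ± 0.04, adjusted p = 0.0134, in antibiotic mice and -0.20 ± 0.04, adjusted p = 0.00662, in water mice, and both held in every leave-one-out fit. Mbd3 has the shortest transcript of the set (1662 nt), and with the length slope as covariate the changes were -0.11 ± 0.05, adjusted p = 0.39, in antibiotic mice and -0.13 ± 0.07, adjusted p = 0.725, in water mice.

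Other MBD genes changed with antibiotics under morphine. Mbd4, a thymine glycosylase that repairs deaminated methylcytosine, had 10.2, 9.15, 11.8, 10.6 and 9.67 CPM in antibiotic-morphine and 8.63, 7.11, 8.40, 8.60 and 7.87 CPM in water-morphine libraries (0.34 ± 0.09, adjusted p = 0.0138). The groups did not overlap, and the call was lost without antibiotic-morphine library 3 (adjusted p = 0.0502). Mbd1, a reader of methylated CpG, ran from 35.1 to 40.9 CPM in antibiotic-morphine and from 31.5 to 34.1 CPM in water-morphine libraries (0.21 ± 0.07, adjusted p = 0.0398). Mbd2, also a reader and a NuRD partner, ran from 57.1 to 64.3 CPM and from 49.1 to 56.0 CPM in these groups (0.18 ± 0.06, adjusted p = 0.0318). Neither of these pairs of groups overlapped, but Mbd1 was lost in 8 leave-one-out fits (without antibiotic-morphine 1, 3 or 4, or any water-morphine library; adjusted p 0.0508 to 0.111) and with the cortical and septal score as covariate, no filter on low counts, the share of counts outside genes as covariate or both libraries with the highest Malat1 left out (adjusted p 0.0615 to 0.104). Mbd2 was lost in 5 (without antibiotic-morphine 1 or 3, or water-morphine 2, 4 or 6; adjusted p 0.0543 to 0.0921).

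With morphine in antibiotic mice, Mbd1 was higher too, at 38.0, 35.1, 40.6, 40.9 and 35.5 CPM in antibiotic-morphine libraries and between 28.6 and 36.8 CPM with a median of 30.7 in antibiotic-saline libraries (0.27 ± 0.07, adjusted p = 0.0117), a call kept in all 22 leave-one-out fits and lost with the length slope as covariate (0.18 ± 0.09, adjusted p = 0.394). Mbd4 was higher in the same comparison (0.28 ± 0.09, adjusted p = 0.0449), and its call was lost in 14 of those fits (without any antibiotic-morphine library but 2, water-morphine 2, 5 or 6, antibiotic-saline 1, 2, 3 or 5, or water-saline 3, 6 or 8; adjusted p 0.0501 to 0.146) and with DESeq2's test, the length slope as covariate, no filter on low counts, only the compared groups in the fit, the share of counts outside genes as covariate or both libraries with the highest Malat1 left out (adjusted p 0.0546 to 0.511). Mbd5 and Mbd6, members of the family linked to histone H2A deubiquitination, passed in none of the comparisons. Their largest log2 differences were 0.15 ± 0.06 for Mbd5 with morphine in water mice and 0.28 ± 0.13 for Mbd6 with antibiotics under morphine.

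Among the demethylase genes, Kdm6b, whose product JMJD3 removes H3K27 trimethylation, was lowest in mice that had neither treatment. It had 55.3, 60.8, 62.0, 67.0 and 51.4 CPM in antibiotic-morphine libraries and 54.9, 57.1, 49.8, 52.5 and 42.6 CPM in water-morphine libraries. Antibiotic-saline libraries lay between 52.2 and 60.0 CPM with a median of 55.2, and water-saline libraries between 38.6 and 42.3 CPM with a median of 40.5. Neither the antibiotic-saline nor the water-morphine libraries overlapped the water-saline libraries. The log2 change was 0.46 ± 0.06, adjusted p = 0.00111, for antibiotics under saline, 0.34 ± 0.07, adjusted p = 0.00516, for morphine in water mice, and 0.21 ± 0.07, adjusted p = 0.0407, for antibiotics under morphine. The first of these stayed past the threshold in every alternative run, the length slope included (0.43 ± 0.07, adjusted p = 0.0168). The second held in every leave-one-out fit and was lost with the length slope (0.28 ± 0.12, adjusted p = 0.674). The third was lost in 6 leave-one-out fits (without antibiotic-morphine 2, 3 or 4, or water-morphine 4, 5 or 6; adjusted p 0.0542 to 0.129) and with the cortical and septal score as covariate, no filter on low counts, only the compared groups in the fit, the share of counts outside genes as covariate or both libraries with the highest Malat1 left out (adjusted p 0.0568 to 0.128). Morphine in antibiotic mice gave 0.09 ± 0.07, adjusted p = 0.4, and the difference of the morphine changes was -0.25 ± 0.09, adjusted p = 0.261.

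Kdm5a, which removes H3K4 methylation, rose with morphine at both microbiome statuses. Its values were 79.5, 83.5, 91.4, 82.6 and 82.7 CPM in antibiotic-morphine and 78.2, 77.1, 69.8, 85.4 and 72.6 CPM in water-morphine libraries, against between 59.7 and 71.0 CPM with a median of 66.4 in antibiotic-saline, and between 54.9 and 69.6 CPM with a median of 64.9 in water-saline libraries. Morphine and saline libraries of the same status did not overlap, with a log2 change of 0.36 ± 0.06, adjusted p = 0.000948, in antibiotic mice and 0.26 ± 0.06, adjusted p = 0.0172, in water mice. With the length slope as covariate they were 0.26 ± 0.09, adjusted p = 0.143, in antibiotic mice and 0.12 ± 0.11, adjusted p = 0.861, in water mice. Exons of Kdm5a overlap Ccdc77 on the other strand, and whether counting used strand is not given in the sources used here. Its relative Kdm5b was higher with antibiotics under saline, at between 106 and 115 CPM with a median of 111 in antibiotic-saline and between 94.8 and 104 CPM with a median of 95.6 in water-saline libraries (0.18 ± 0.05, adjusted p = 0.048), with no overlap. The call was also lost with the length slope as covariate, no filter on low counts, only the compared groups in the fit, the share of counts outside genes as covariate or both libraries with the highest Malat1 left out (adjusted p 0.0558 to 0.18). Its morphine changes were 0.08 ± 0.05 in water mice and 0.03 ± 0.05 in antibiotic mice and did not pass.

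Kdm4a, a demethylase of H3K9 and H3K36, was higher in antibiotic-morphine mice than in water-morphine and antibiotic-saline mice. It had 102, 101, 105, 96.3 and 86.1 CPM in antibiotic-morphine and 79.4, 86.9, 83.8, 90.4 and 84.1 CPM in water-morphine libraries (0.21 ± 0.05, adjusted p = 0.0069), and between 81.5 and 93.2 CPM with a median of 86.9 in antibiotic-saline libraries (0.18 ± 0.05, adjusted p = 0.02). The groups overlapped in both cases. The antibiotic change held in every alternative run, and the morphine change was lost without antibiotic-morphine 1 or 3 (adjusted p 0.0587 to 0.0705), with only the compared groups in the fit (adjusted p = 0.0616) and with the length slope as covariate (0.11 ± 0.07, adjusted p = 0.476). Kdm2b, which binds unmethylated CpG islands and recruits Polycomb proteins, was lower with antibiotics under morphine, at 17.0, 24.0, 21.2, 21.3 and 22.2 CPM in antibiotic-morphine and 27.0, 26.3, 25.7, 24.7 and 23.5 CPM in water-morphine libraries (-0.27 ± 0.08, adjusted p = 0.0298). The lowest value was that of antibiotic-morphine library 1, and the call was lost without antibiotic-morphine 1, 3 or 4, or water-morphine 2 or 3 (adjusted p 0.0533 to 0.097) or with both libraries with the highest Malat1 left out (adjusted p = 0.0529). Kdm2b overlaps exons of Rnf34 and A930024E05Rik. Kdm3a, an H3K9 demethylase, was higher with morphine in antibiotic mice, at 94.2, 101, 88.9, 89.7 and 95.2 CPM in antibiotic-morphine libraries and between 56.9 and 87.3 CPM with a median of 77.3 in antibiotic-saline libraries. Its groups did not overlap (0.31 ± 0.10, adjusted p = 0.0395), and the call was lost in 8 leave-one-out fits (without any antibiotic-morphine library, or antibiotic-saline 1, 5 or 6; adjusted p 0.0563 to 0.0817) and with the length slope as covariate, no filter on low counts or both libraries with the highest Malat1 left out (adjusted p 0.0586 to 0.362). Kdm1a and Kdm1b, the flavin-dependent amine oxidases, and Kdm2a, Kdm3b, Kdm4b and Kdm4c did not pass in any comparison.

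Of the PRC2 genes, whose complex methylates H3K27, Ezh2 alone passed in a comparison. It had 10.04, 8.53, 9.51, 8.31 and 9.31 CPM in antibiotic-morphine and 5.05, 5.46, 6.51, 6.04 and 6.96 CPM in water-morphine libraries. These groups did not overlap, and the log2 change was 0.60 ± 0.14, adjusted p = 0.00466, the largest of the set in that comparison. It held in every alternative run (0.59 ± 0.14, adjusted p = 0.00565, with the length slope). Antibiotic-saline libraries ran from 5.63 to 9.96 CPM and water-saline libraries from 5.12 to 7.70 CPM, so antibiotic-saline libraries reached into both morphine groups. The morphine changes were 0.36 ± 0.14, adjusted p = 0.0767, in antibiotic mice and -0.12 ± 0.14, adjusted p = 0.669, in water mice. Ezh1, the paralog typical of non-dividing cells, Eed and Suz12 had log2 changes between -0.03 and 0.11 over the 4 comparisons.

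Nsd1 and Ash1l, methyltransferases of H3K36, rose with morphine at both statuses. Nsd1 had 252, 225, 238, 246 and 240.0 CPM in antibiotic-morphine and 210.0, 217, 204, 228 and 209 CPM in water-morphine libraries, against between 189.7 and 241 CPM with a median of 197 in antibiotic-saline, and between 177 and 199.7 CPM with a median of 184 in water-saline libraries. Its log2 changes with morphine were 0.23 ± 0.05, adjusted p = 0.00859, in antibiotic mice and 0.20 ± 0.05, adjusted p = 0.0276, in water mice. Ash1l had 253, 247, 279, 257 and 244 CPM in antibiotic-morphine and 218, 222, 228, 235 and 242 CPM in water-morphine libraries, against between 198 and 260.4 CPM with a median of 208 in antibiotic-saline, and between 179 and 214 CPM with a median of 199.5 in water-saline libraries. Its changes were 0.24 ± 0.06, adjusted p = 0.0165, in antibiotic mice and 0.21 ± 0.06, adjusted p = 0.0432, in water mice. For both genes the water groups did not overlap, while among antibiotic-saline libraries the highest value, that of library 6, stood within the antibiotic-morphine range. With the length slope as covariate, the changes in water mice were -0.06 ± 0.07 for Nsd1 and -0.11 ± 0.07 for Ash1l, opposite in sign, and those in antibiotic mice were 0.05 ± 0.05 for Nsd1 and 0.02 ± 0.06 for Ash1l. Ash1l in antibiotic mice lost its call without antibiotic-morphine library 3 (adjusted p = 0.0598) or with only the compared groups in the fit (adjusted p = 0.0512), and in water mice with the share of counts outside genes as covariate (adjusted p = 0.0531). Exons of Ash1l overlap Dap3 on the other strand. Nsd1 was also higher with antibiotics under morphine (0.17 ± 0.06, adjusted p = 0.0409), lost in 8 leave-one-out fits (without any antibiotic-morphine library but 2, or any water-morphine library but 5; adjusted p 0.0588 to 0.102) and with the cortical and septal score as covariate, no filter on low counts or the share of counts outside genes as covariate (adjusted p 0.0641 to 0.0764).

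Setd1a, an H3K4 methyltransferase of the COMPASS type, was higher with antibiotics under morphine, at 99.7, 94.7, 107, 107 and 102 CPM in antibiotic-morphine and 82.5, 96.1, 76.9, 86.5 and 81.5 CPM in water-morphine libraries (0.27 ± 0.07, adjusted p = 0.00583). Water-morphine library 3 reached into the antibiotic-morphine range, and the call held in every alternative run. Its close relative Setd1b had 0.10 ± 0.08, adjusted p = 0.384, in that comparison, and its largest log2 difference was with antibiotics under saline (0.25 ± 0.07, adjusted p = 0.0782).

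Setd5, a SET-domain gene linked to intellectual disability in humans, was higher with morphine in antibiotic mice, at 157, 162, 154, 163 and 151 CPM in antibiotic-morphine libraries and between 126 and 139.5 CPM with a median of 134 in antibiotic-saline libraries (0.24 ± 0.06, adjusted p = 0.0113), without overlap. Setd8, the H4K20 monomethyltransferase, was lower, at 38.3, 45.4, 39.6, 44.2 and 43.5 CPM in antibiotic-morphine libraries and between 43.3 and 60.5 CPM with a median of 51.6 in antibiotic-saline libraries (-0.28 ± 0.07, adjusted p = 0.0112). Both calls were kept in every leave-one-out fit and lost with the length slope as covariate (0.20 ± 0.09, adjusted p = 0.273, for Setd5 and -0.33 ± 0.10, adjusted p = 0.102, for Setd8). Setd2, Setd3, Setd7, Setdb1, Dot1l, Ehmt1 and Ehmt2 did not pass in any comparison. Of these, the H3K36 trimethylase gene Setd2 came nearest with morphine in water mice (0.13 ± 0.04, adjusted p = 0.075), followed by Setd3, the actin histidine methyltransferase gene, in the other direction (-0.11 ± 0.04, adjusted p = 0.0795).

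Prmt1, the main enzyme of asymmetric arginine dimethylation, was lower with morphine in antibiotic mice. It had 96.3, 92.6, 92.7, 98.6 and 93.8 CPM in antibiotic-morphine libraries and between 103 and 115 CPM with a median of 106 in antibiotic-saline libraries, with no overlap (-0.18 ± 0.05, adjusted p = 0.015). The call held in every leave-one-out fit and was lost with the length slope (-0.10 ± 0.06, adjusted p = 0.487). Water-morphine libraries had 105, 113, 92.8, 102 and 105 CPM, and the change from water-saline libraries was -0.07 ± 0.05, adjusted p = 0.425. Prmt5, the symmetric dimethylating enzyme, and Carm1 did not pass in any comparison.

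The log2 changes of the 43 genes were set against transcript length. Over the 43 genes, Pearson's r between the log2 change and log2 length was 0.77 for morphine in water mice (Spearman's rho 0.80), 0.44 for morphine in antibiotic mice (0.44), 0.44 for antibiotics under saline (0.49) and 0.07 for antibiotics under morphine (0.13). Over all 13892 genes with a length, r was 0.38, 0.25, 0.14 and 0.015 in the same order. These are descriptions across genes measured in the same libraries. The length slope is computed from the same counts. Groups that differ in it therefore differ in this relation over all genes by construction. Of the 23 long methylation genes, 6 were higher and 0 lower with morphine in water mice, beside 13.6% and 0.173% of all 3473 long genes. With morphine in antibiotic mice 7 were higher and 1 lower, beside 14.2% and 3.02%. With antibiotics, 2 were higher and 0 lower under saline (1.15% and 0.605%), and 5 were higher and 2 lower under morphine (8.38% and 9.42%). The difference of the morphine changes passed for 0 higher and 1 lower long gene of the set, beside 0.173% and 0.576%. In water mice, 24.2% of the longest decile of all genes were higher with morphine and 0.0719% were lower, whereas in the shortest decile 0.144% were higher and 10.4% were lower. With the length slope as covariate, the median log2 change of the set was -0.06 for morphine in water mice, 0.02 for morphine in antibiotic mice, 0.02 for antibiotics under saline and 0.10 for antibiotics under morphine. The median standard error was 0.107 in the first comparison, against 0.0645 without the covariate, and was 0.0638 against 0.0666 in the last.

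**Figure D4:**
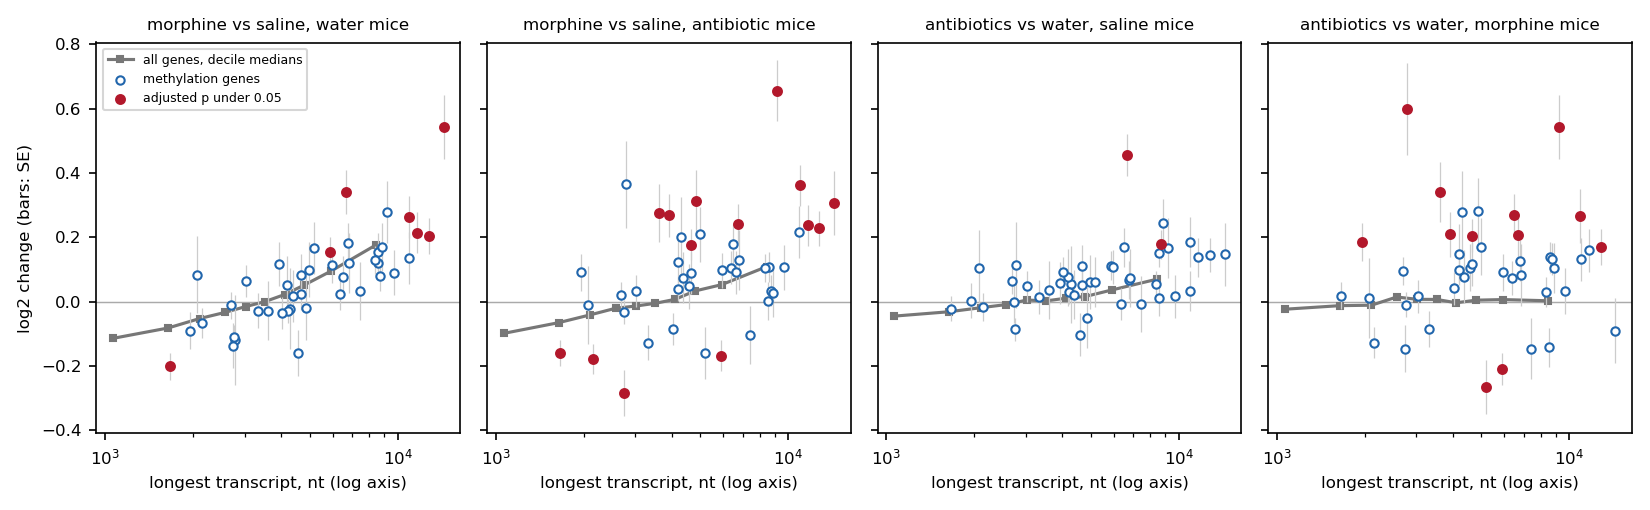
log2 change of each gene (points, bars are standard errors) against the length of its longest transcript in nt (log axis) in the 4 comparisons, with red points where the adjusted p was under 0.05 and grey squares for the medians of all genes in deciles of length. The points follow the rising grey line for morphine in water mice (r = 0.77) and show no slope for antibiotics under morphine (r = 0.07).

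**Figure D5:**
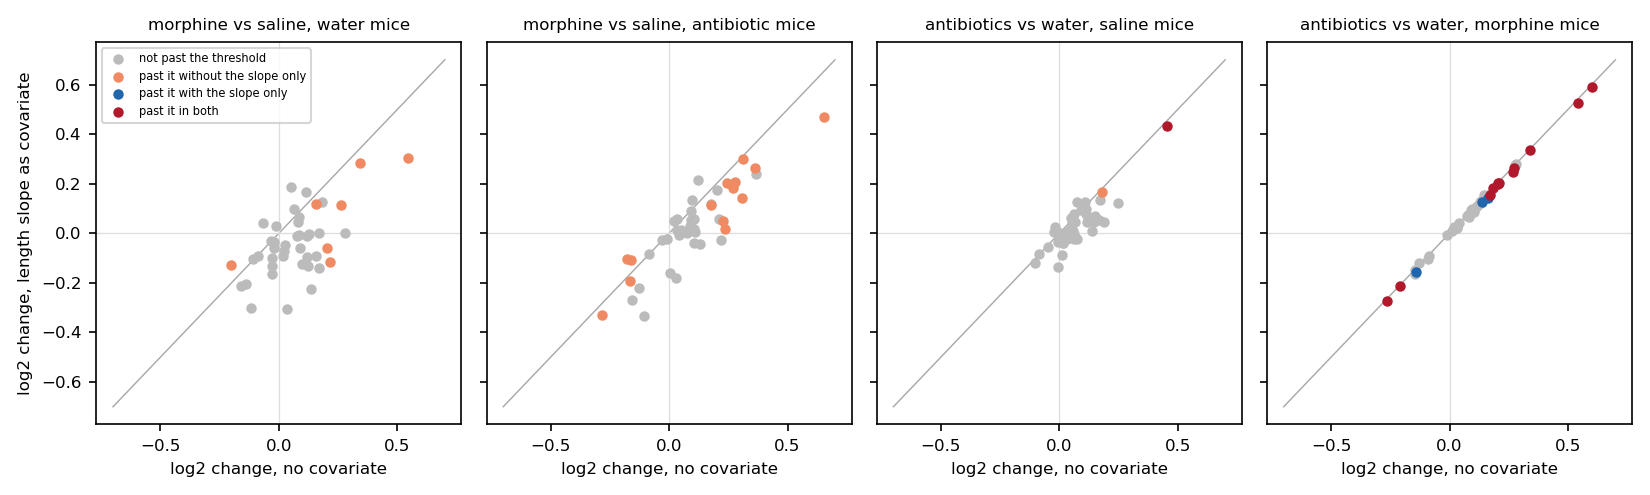
log2 change of each gene with the length slope as covariate (vertical axis) against the change without it (horizontal axis) in the 4 comparisons, coloured by which fit passed the threshold, with the line of equal values. For antibiotics under morphine the points lie near the line, while for morphine in water mice most lie below it and 0 stay past the threshold.

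Related genes outside the set were read from the same fit. Shares that passed follow for morphine in water mice, morphine in antibiotic mice and antibiotics under morphine, in that order. They were 6.58%, 13% and 18% of all genes tested. Among other genes of DNA methylation they were 21.4%, 28.6% and 21.4%, and among other lysine methyltransferases 12.5%, 12.5% and 20.8%. Among 14 other genes of DNA methylation, 3 rose with morphine in water mice, and 3 rose and 1 fell in antibiotic mice. Those that rose in both included the methyl-CpG-binding zinc finger genes Zbtb33 (0.28 ± 0.08 in water and 0.35 ± 0.08 in antibiotic mice) and Zbtb38 (0.30 ± 0.07 in water and 0.25 ± 0.07 in antibiotic mice). Uhrf2, a hemimethylated-DNA reader, fell with morphine in antibiotic mice (-0.24 ± 0.07, adjusted p = 0.0297) and with antibiotics under morphine (-0.36 ± 0.07, adjusted p = 0.00157), where 1 gene rose and 2 fell: the other gene that fell was Cxxc4 (-0.36 ± 0.09), a CpG-binding CXXC gene, and the gene that rose was Gadd45b (0.45 ± 0.13), a stress gene linked to DNA demethylation. Of 24 other lysine methyltransferases, 3 rose with morphine in water mice, led by the H3K4 methyltransferase gene Kmt2c (0.43 ± 0.07, adjusted p = 0.0026). In antibiotic mice 3 rose with morphine, led by Kmt2b (0.45 ± 0.07, adjusted p = 0.000325), which also rose with antibiotics under morphine (0.44 ± 0.07, adjusted p = 0.000214), among 4 higher and 1 lower there.

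Of 13 other lysine demethylases, 0 passed with morphine in water mice, 1 rose and 1 fell with morphine in antibiotic mice, and 1 rose and 1 fell with antibiotics under morphine. Mina, a JmjC hydroxylase gene of the nucleolus, was the lower one both times (-0.40 ± 0.12, adjusted p = 0.0305, and -0.66 ± 0.12, adjusted p = 0.000691). Of 6 other arginine methyltransferases, 2 fell in each of these comparisons, Prmt2 among them (-0.28 ± 0.08, adjusted p = 0.0281, and -0.41 ± 0.09, adjusted p = 0.00193). Of 20 complex subunits, 1 rose with morphine in water mice (Hcfc1, 0.19 ± 0.05), 2 rose and 2 fell with morphine in antibiotic mice, and 3 rose and 2 fell with antibiotics under morphine: the COMPASS subunit gene Ash2l fell in both (-0.22 ± 0.06 and -0.28 ± 0.06), and the PRC2 partner gene Mtf2 rose in both (0.28 ± 0.09 and 0.32 ± 0.09). Of 16 enzymes of the methyl donor and cofactor pathways, 2 rose and 1 fell with morphine in antibiotic mice, and 2 rose and 3 fell with antibiotics under morphine. Shmt1, the cytosolic serine hydroxymethyltransferase gene, rose in both (0.61 ± 0.15, adjusted p = 0.012, and 0.73 ± 0.16, adjusted p = 0.00244), while D2hgdh, a dehydrogenase gene of hydroxyglutarate, fell in both (-0.30 ± 0.08 and -0.35 ± 0.08). In the order of shares used above, 6.58%, 13% and 18% of all genes tested passed. The shares were 0%, 15.4% and 15.4% of the demethylases and 0%, 33.3% and 33.3% of the arginine methyltransferases. They were 5%, 20% and 25% of the complex subunits and 0%, 18.8% and 31.2% of the methyl donor and cofactor enzymes. With antibiotics under saline, 0 of the genes in these 6 lists passed, against 1.41% of all genes tested.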

How the data were processed

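Per the labels' protocols, total RNA was isolated in TRIzol, a SMARTer kit made the cDNA, and sonication sheared it. Per the submitters' processing notes, the authors used STAR 2.4.0, FastQC and edgeR. Genome build, gene annotation, counting tool and strand handling: not given in the sources used here. The authors deposited raw counts per gene, and no per-library column was left unused. Summary entries (20.6% to 26.4% of a library's counts) were removed. R 4.3.3 with edgeR 4.0.16 (TMM, filterByExpr by group, robust quasi-likelihood F-test in 1 fit of 4 groups, Benjamini-Hochberg over 14564 genes, two-sided) gave changes, and SE is the log2 change divided by the root of F. CPM use gene counts with TMM. Alternatives used DESeq2 1.42.0, limma 3.58.1, covariates, filters and left-out libraries, and code was tested on simulated data. Lengths come from GENCODE M21 by symbol (95.4% of genes tested). Libraries of a group differed beyond sampling noise (chi-square per gene 3.34 to 24.9 in 50 pairs). The 43 genes, the other lists and the rule for naming were chosen with earlier results of these data known. Values per library are given for up to 8 genes with the smallest p in each comparison, and for Ehmt2 as the gene with the highest mean. Kdm3a, outside these 8, is given as well. For other lists up to 3 genes are named by p. Cxxc4, Gadd45b, D2hgdh, Hcfc1 and the genes nearest the threshold were added after their values were seen where they fall outside the rule. Some genes of these lists are not reported here. Labels give no batch.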

Additional observations from a re-analysis of the deposited data

Results flagged for a closer look

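In 14 of 172 gene and group combinations (8.14%), 1 library stood apart from the others of its group by Dixon's test at the 95% level, where chance alone flags about 1 in 20. Antibiotic-saline library 6 held 3 of them: Tet3 (94.5 CPM, the others 68.0 to 74.4), Mbd5 (98.1 CPM, the others 72.0 to 79.1) and Setd1b (105 CPM, the others 76.1 to 84.4), each of them high. Antibiotic-morphine library 1 was low for Mbd5 (75.6 CPM, the others 80.4 to 81.6) and Mbd6 (39.1 CPM, the others 56.4 to 60.4). Antibiotic-morphine library 4 was high for Kdm2a (144 CPM, the others 131 to 134). Eed was high in antibiotic-morphine library 5 (16.2 CPM, the others 11.6 to 12.4) and in antibiotic-saline library 4 (16.7 CPM, the others 11.3 to 12.8). Water-morphine library 4 was low for Dnmt3a (120.0 CPM, the others 138 to 143) and high for Setd7 (179.6 CPM, the others 142 to 149.8), and library 5 was high for Ezh1 (81.3 CPM, the others 78.6 to 79.2) and Setd2 (125 CPM, the others 114 to 116). Water-morphine library 3 was high for Mbd3 (128 CPM, the others 115 to 116), and water-saline library 6 was high for Dnmt3a (142 CPM, the others 122 to 129.6).

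The morphine change of Dnmt1 differed between antibiotic and water mice by -0.32 on the log2 scale (edgeR, adjusted p = 0.0276), from a test of the difference itself.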

How the results depend on the processing

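Counts of methylation genes past the threshold are given first and counts of all genes after the slash. For morphine in water mice (7/959), the count was 2/281 with a replicate block, 0/0 with the length slope, 11/1685 at adjusted p under 0.10, and all genes came to 1458 with the cortical and septal marker score as covariate. For morphine in antibiotic mice (14/1900) it was 9/1187 when only the 2 groups compared were fitted and 0/141 with the length slope. For antibiotics under saline (2/205) it was 4/420 with DESeq2, 1/67 with only the groups compared, 1/105 with the block, 1/46 with the length slope, 1/100 with the share of counts outside genes as covariate, 1/74 without both libraries with the highest Malat1 and 4/518 at adjusted p under 0.10. It was 1 of the 43 without the low-count filter, and all genes came to 321 with the cortical score. For antibiotics under morphine (12/2621) no such setting moved either count by over 1.5 times. For the difference (1/68) it was 0/10 with the block, and all genes came to 181 with DESeq2, 160 with the cortical score and 146 at adjusted p under 0.10. A fit of only the groups compared could not be made for the difference. Leaving out 1 library gave 3 to 8 methylation genes and 509 to 1118 of all genes for morphine in water mice, 8 to 16 and 1084 to 2048 for morphine in antibiotic mice, 1 to 4 and 48 to 409 for antibiotics under saline, 6 to 15 and 1877 to 2824 for antibiotics under morphine, and 0 to 1 and 28 to 100 for the difference. For all genes, the count for morphine in water mice was 509 without water-morphine library 2, 556 without 6, 615 without water-saline library 4 and 549 without 8. For morphine in antibiotic mice it was 1101 without antibiotic-morphine library 1, 1121 without 3 and 1084 without antibiotic-saline library 1. For antibiotics under saline the extremes came without antibiotic-saline library 4 (48) and 1 (409), and for the difference the lowest count came without water-morphine library 2 (28). The cause of these moves was not tested. Replicate numbers come from the library names, which do not say whether the numbers pair libraries. Same-numbered libraries correlated between -0.48 and 0.35 in their deviations from the group means, which does not settle it. Except for Dnmt1, the gene paragraphs leave the block out. With it, calls of Ash1l, Dnmt1, Kdm5a, Mbd3 and Nsd1 for morphine in water mice were lost. So were Kdm3a and Mbd4 for morphine in antibiotic mice, Kdm5b for antibiotics under saline, and Kdm2b, Kdm6b and Mbd2 for antibiotics under morphine (adjusted p 0.0542 to 0.161). Of 36 called changes, 6 held in every alternative run, 10 were lost with the length slope alone, and Ash1l (-0.11) and Nsd1 (-0.059) had the opposite sign in water mice under it. For morphine in water mice edgeR called 0 of all genes under it, with 1032 at an unadjusted p under 0.05. Counting error weighs most on Ezh2, Mbd4 and Kdm1b, which had the lowest mean CPM.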
